A study of Mus musculus with 4 samples.

Results

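Iron, zinc and copper are moved across cell membranes, stored and buffered by a small set of proteins, and 41 genes for them were followed here in mouse colon. They were chosen by symbol alone: every gene of the Slc11, Slc30, Slc31, Slc39 and Slc40 transporter families in the count table, together with Mt1, Mt2, Tfrc, Trf, Fth1, Ftl1, Heph, Cybrd1, Aco1, Ireb2, Atp7a and Atp7b. These are 41 of 46095 symbols in the table. Colon RNA came from C57BL/6 mice at postnatal day 21, and the groups were wild type (WT) and Esr2-KO, labelled Esr2-/-, the genotype without the gene for estrogen receptor β. Each group held 2 libraries, called WT 1, WT 2, KO 1 and KO 2 below, and no treatment is named for either group. The labels do not say which part of Esr2 is deleted, which stretch of colon was taken, or whether each library is a separate animal, so p-values measure only the spread between these libraries, which may be technical.

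Dietary iron is reduced at the apical face of the enterocyte and enters through the divalent metal transporter Slc11a2. It is held in the ferritin shell built from Fth1 and Ftl1, or leaves at the basolateral face through ferroportin (Slc40a1), where hephaestin (Heph) oxidises it for binding to transferrin (Trf). Cells tune this by 2 RNA-binding iron regulatory proteins, Aco1 and Ireb2, which bind hairpins called iron-responsive elements. Zinc enters the cytosol through ZIP proteins (Slc39a) and leaves it, for vesicles or the outside, through ZnT proteins (Slc30a), while metallothioneins bind free zinc and copper and are induced by zinc through the factor Mtf1. Copper enters through Slc31a1 and is pumped into the secretory pathway or out of the cell by the ATPases Atp7a and Atp7b.

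The libraries held 33709643 and 33329655 counts in WT, against 32986548 and 30826790 in Esr2-KO. A floor of 3 counts corresponds to 0.0826 to 0.114 CPM (counts scaled to library size, with edgeR's trimmed mean of M-values). It is given as a guide to low levels only, and a gene with no count is given as 0 CPM. Esr2 itself (chr12:76120419-76177259, GRCm38) had 21 and 13 counts in WT, against 6 and 16 in Esr2-KO, so the groups overlapped and the label was not checked by this gene at this depth (log2 change -0.32 ± 0.77 SE, edgeR adjusted p = 0.854). One library stood apart: the summed level of 23 pancreatic acinar markers was 459 and 523 CPM in WT, 1839 in KO 1 and 219184 in KO 2, where these genes took 18.7% of all counts. Of the 23, 19 were above both WT libraries in both Esr2-KO libraries, and Prss1, Prss2 and Try4 had no count in any library. All 10 colon epithelium markers were detected in every library, with sums of 12187, 14401, 10746 and 10515 CPM in the order WT 1, WT 2, KO 1, KO 2. Within that sum 5 markers were higher and 3 lower in Esr2-KO without overlap. The 2 of them that were called, Car1 and Cdx2, were lower, with Cdx2 at 199, 165, 60.9 and 27.9 CPM in that order (log2 change -2.03, edgeR adjusted p = 0.0373). The 10 small-intestine markers summed to 762, 928, 206 and 55.1 CPM, nearly all of it Fabp2 at 717, 826, 166 and 19.9 CPM, while Fabp6 and Lyz1 overlapped between the groups. Any difference in the stretch of gut taken cannot be told apart from the genotype.

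Few of the metal-handling genes differed between the genotypes past the threshold. Of the 41 genes, 37 had enough counts to be tested, and 2 passed an adjusted p of 0.05: Slc39a8, a zinc, iron and manganese importer, was lower in Esr2-KO, and Atp7b, a copper ATPase, was higher. That is 5.41% of the members tested, beside 2.69% of the 17169 genes tested in all (1.3% higher and 1.39% lower). An unadjusted p under 0.05 was reached by 12 members, 6 higher and 6 lower, or 32.4% beside 20.6% of all genes. The groups did not overlap for 20 members, 11 higher and 9 lower, or 54.1% beside 54.7% of all genes (27% higher and 27.7% lower). The median log2 change of the members was 0.02, with 19 positive and 18 negative, and that of all genes was -0.00. Under scaling by library totals the median of all genes moved to -0.17 and that of the members to -0.16, and the 48.3% of all calls that were higher became 29.9%. In whole colon, fewer cells of a type and less RNA per cell cannot be told apart.

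**Figure D1:**
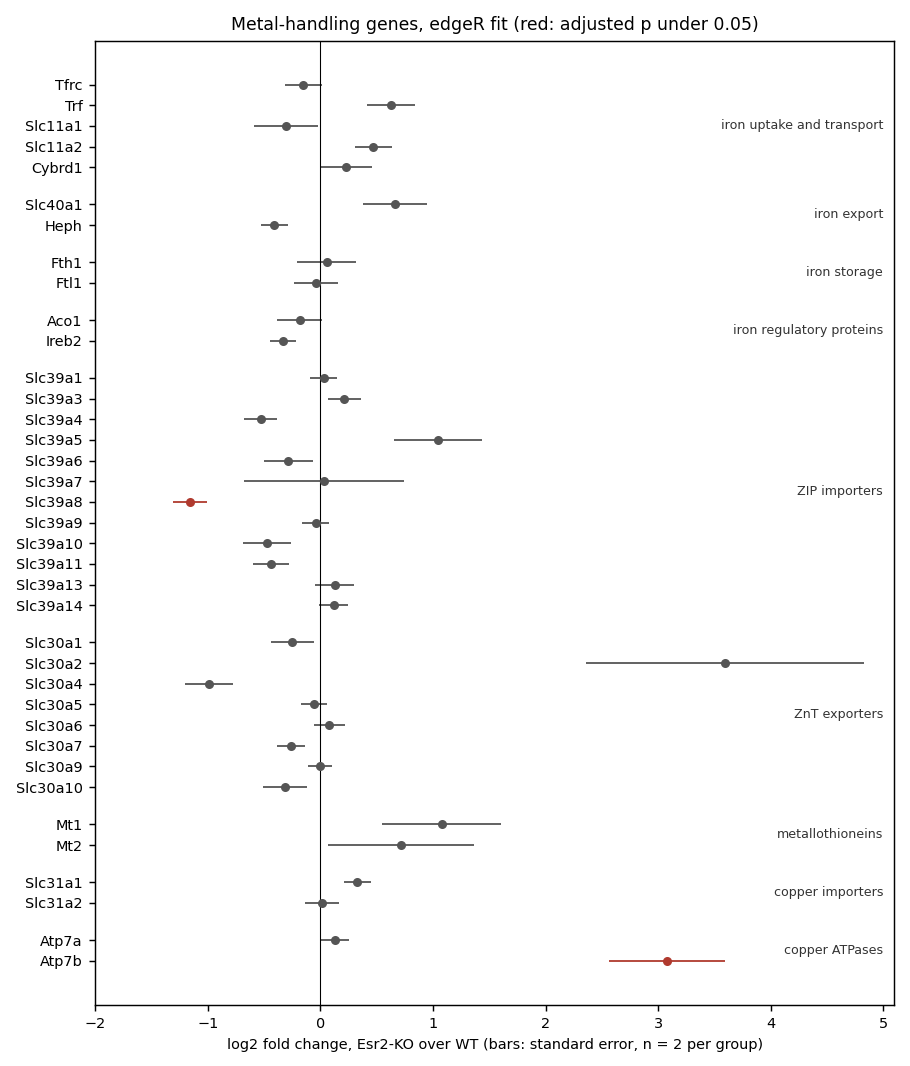
Log2 fold change of Esr2-KO over WT (x axis) for the 37 members tested, grouped by role (y axis); points are edgeR estimates, bars are ± 1 SE, and red marks an adjusted p under 0.05. The red points are Slc39a8 at -1.16 and Atp7b at 3.08, and Slc30a2 reaches 3.60 with a wide bar.

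Of 5 iron uptake and transport genes none was called by edgeR, and 2 had an unadjusted p under 0.05, both higher (9.69% of all genes were). The DESeq2 test called 1, Trf (adjusted p = 0.0449), among 1730 of all 17169 genes tested. The transferrin receptor Tfrc (chr16:32608896-32632794), which takes transferrin-bound iron into cells, stood at 125 and 122 CPM in WT, against 128 and 93.8 CPM in Esr2-KO. Its groups overlapped, and its log2 change of -0.15 ± 0.16 had a 95% interval from -0.54 to 0.24 (edgeR adjusted p = 0.643). Slc11a2 (chr15:100387898-100424209) was at 30.9 and 33.5 CPM in the WT libraries and 38.4 and 50.9 CPM in those of Esr2-KO. Both Esr2-KO libraries were above both WT libraries, but the change of 0.47 ± 0.16 did not pass (adjusted p = 0.178, and 0.0265 without KO 1). Trf (chr9:103208876-103230286), the plasma iron carrier, was at 72.7 and 109 CPM (WT) and at 157 and 124 CPM (Esr2-KO), again without overlap (0.63 ± 0.21, adjusted p = 0.170). By the GENCODE M21 annotation 63.5% of the exonic bases of Trf are shared with the overlapping gene Gm20425 on the same strand, so its count is uncertain. The ferric reductase Cybrd1 (chr2:71118054-71142926) was low, at 6.94 and 6.35 CPM in WT, against 8.60 and 6.98 CPM in Esr2-KO, with a change of 0.23 ± 0.23 (adjusted p = 0.610). Slc11a1, the phagosomal metal transporter of macrophages, lay between 3.77 and 6.17 CPM with overlapping groups. The 8 macrophage markers summed to between 380 and 387 CPM in the 4 libraries, but they did not move together. Within that sum 3 markers were higher and 2 lower in Esr2-KO without overlap, beside 27% and 27.7% of all genes tested. The part of these markers in the Slc11a1 values was not tested.

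The 2 iron export genes stood in opposite directions, and neither passed the edgeR test. Ferroportin, Slc40a1 (chr1:45908070-45926532), was at 121 and 234 CPM in the WT libraries and 278 and 285 CPM in those of Esr2-KO. WT 1 was the low library, and the spread within WT was wider than the gap between WT 2 and the Esr2-KO libraries. The change was 0.66 ± 0.29 (95% interval -0.02 to 1.35, adjusted p = 0.253), and without WT 2 it was 1.23 with an adjusted p of 0.0292. The order of the libraries for Slc40a1 was also that of 7 erythroid markers, which summed to 14.4 and 79.1 CPM in WT and to 123 and 166 CPM in Esr2-KO (only Slc4a1 was at 0 in a library, KO 1). The sum was mostly globin, with Hbb-bs at 8.10 and 42.7 CPM in WT, against 69.2 and 90.1 CPM in Esr2-KO. The part of these markers in the result was not tested. Hephaestin, Heph (chrX:96455436-96574485), was at 112 CPM in each WT library and at 90.5 and 77.7 CPM in Esr2-KO. Both Esr2-KO values lay below WT, and the change was -0.41 ± 0.12 (adjusted p = 0.128, and 0.0494 with DESeq2).

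The ferritin genes had the highest levels of the set per exon length, and their groups overlapped. Fth1 (chr19:9980600-9985111), the heavy chain with ferroxidase activity, was at 1617 and 2371 CPM (WT) and at 2004 and 2139 CPM (Esr2-KO). Its WT libraries enclosed both Esr2-KO libraries, and the change of 0.06 ± 0.26 turned to -0.11 under scaling by library totals. Ftl1 (chr7:45457944-45459886), the light chain, was at 1219 and 1178 CPM in WT, against 1105 and 1225 CPM in Esr2-KO, a change of -0.04 ± 0.19. The 95% intervals ran from -0.57 to 0.68 for Fth1 and from -0.51 to 0.42 for Ftl1, and each adjusted p was 0.927. Both ferritin genes have many near-identical processed copies in the mouse genome, so some of their reads may have been counted elsewhere.

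Of the iron regulatory proteins, Aco1 (chr4:40143265-40199009), a cytosolic aconitase that binds RNA when it lacks its iron-sulfur cluster, stood at 69.9 and 108 CPM in the WT libraries and 76.3 and 79.8 CPM in those of Esr2-KO. WT 1 was below and WT 2 above both Esr2-KO libraries (-0.19 ± 0.20, adjusted p = 0.648). Ireb2 (chr9:54862658-54912534), which is degraded in iron-replete cells, was at 70.4 and 80.1 CPM (WT) and at 61.6 and 57.8 CPM (Esr2-KO). Both Esr2-KO libraries were below WT, and the change was -0.33 ± 0.12 (edgeR adjusted p = 0.180).

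The targets of these proteins carry the hairpin in their own transcripts, and its loop is shown because it ties 4 members of the set to each other. A search of GENCODE M21 protein-coding transcripts for C, 5 bases, CAGTGN with a paired upper stem of 5 bases (A with T, G with C or G with T) found it in Fth1, Ftl1, Slc40a1 and Tfrc, 4 of 41 members or 9.76%. Among 21877 genes 31 (0.142%) had it in the 5′ UTR, 129 (0.59%) in the 3′ UTR and 294 (1.34%) anywhere in the transcript. Each site is given 5′ to 3′ on the strand of the gene (GRCm38), with the loop in capitals.
Fth1, 5′ UTR, chr19:9982733-9982759, plus strand: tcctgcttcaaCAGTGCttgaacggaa
Ftl1, 5′ UTR, chr7:45459780-45459806, minus strand: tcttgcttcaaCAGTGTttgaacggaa
Slc40a1, 5′ UTR, chr1:45925466-45925492, minus strand: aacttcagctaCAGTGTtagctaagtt
Tfrc, 3′ UTR, first of 4, chr16:32631220-32631246, plus strand: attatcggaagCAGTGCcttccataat
A hairpin in the 5′ UTR blocks translation when bound, and hairpins in the 3′ UTR protect the Tfrc transcript from decay. The RNA levels of the 4 carriers did not pass the test in either direction, and translation was not measured. The pattern required full pairing of the upper stem, so hairpins with a mismatch or bulge there were missed and other members may carry one. Of the 4 genes it found, only Slc40a1 had groups that did not overlap, which 54.7% of all genes tested did not.

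**Figure D2:**
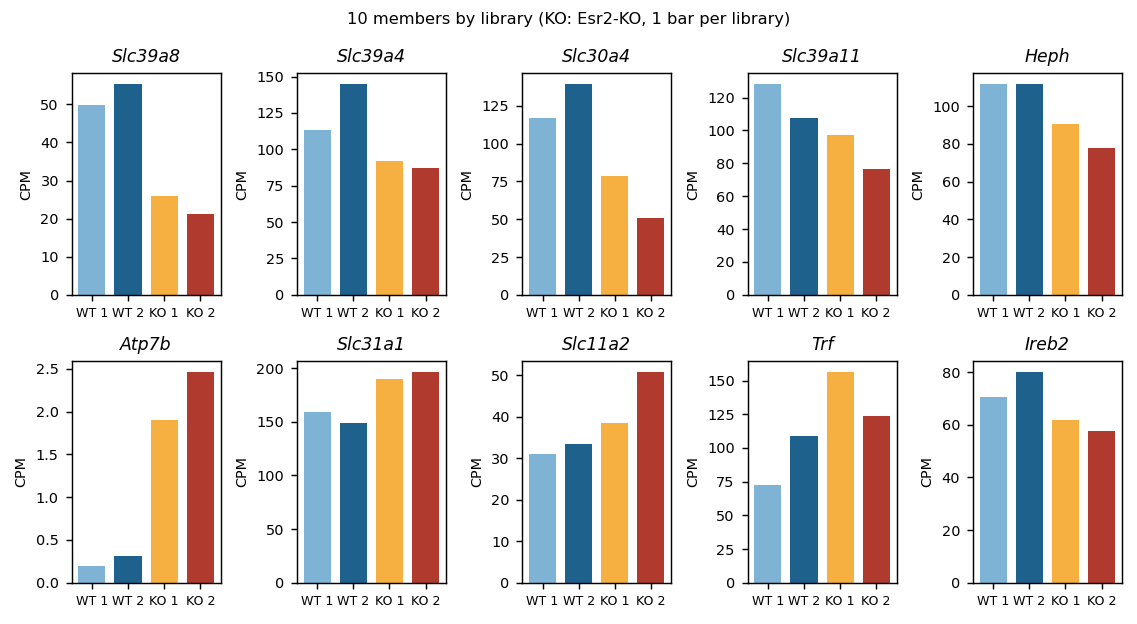
Expression in CPM (y axis, from 0) of 10 members in the 4 libraries, 1 bar per library, 2 WT and 2 Esr2-KO. For Slc39a8 the bars fall from 49.7 and 55.4 in WT to 26.0 and 21.1 in Esr2-KO, for Atp7b they rise from 0.193 and 0.316 to 1.90 and 2.47, and for Slc31a1 the gap is small beside the level.

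Zinc importers of the ZIP family were represented by 14 genes, of which 12 were tested, 1 was called (2.69% of all genes) and 4 had an unadjusted p under 0.05, 1 higher (9.69% of all genes) and 3 lower (10.9% of all genes). The called gene was Slc39a8 (chr3:135816882-135888572), known as ZIP8. It had 1805 and 1927 counts in WT, against 888 and 556 in Esr2-KO, or 49.7 and 55.4 CPM against 26.0 and 21.1 CPM. Both Esr2-KO libraries were far below both WT libraries, and the level was 2.23-fold lower (log2 change -1.16 ± 0.15, 95% interval -1.52 to -0.80, edgeR adjusted p = 0.0239). Without either WT library the size held but the call did not, at -1.23 (adjusted p = 0.0563) without WT 1 and -1.06 (adjusted p = 0.0643) without WT 2. Without KO 2, the library rich in acinar transcripts, it was -1.01 (adjusted p = 0.0194).

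Slc39a4 and Slc39a11 stood in the same direction as Slc39a8 without passing. Slc39a4 (chr15:76612383-76618506), the apical ZIP4 that takes up dietary zinc and is mutated in acrodermatitis enteropathica, was at 113 and 145 CPM in WT, against 91.9 and 87.2 CPM in Esr2-KO. The change was -0.53 ± 0.15 (95% interval -0.88 to -0.18, edgeR adjusted p = 0.114), and DESeq2 gave an adjusted p of 0.023. Slc39a11 (chr11:113244851-113650200) was at 128 and 107 CPM in the WT libraries and 97.1 and 76.7 CPM in those of Esr2-KO, a change of -0.44 ± 0.16 (adjusted p = 0.186). For both genes the Esr2-KO libraries lay below the WT libraries.

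Slc39a5 (chr10:128395927-128401276), a basolateral ZIP of gut and pancreas, followed 1 library. It was at 52.0 and 66.5 CPM in WT, at 69.7 CPM in KO 1 and at 175 CPM in KO 2. KO 1 was only just above WT 2, and KO 2 was far above the rest. The change was 1.04 ± 0.39 (edgeR adjusted p = 0.201), 0.24 without KO 2 (adjusted p = 0.637) and 1.56 without KO 1 (adjusted p = 3.7e-04). The acinar marker sum was highest in KO 2 too, and its part in the result was not tested.

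The remaining ZIP genes did not pass the test. Slc39a14 (chr14:70303467-70351452), which also carries iron, was at 30.3 and 31.9 CPM (WT) and at 31.8 and 35.8 CPM (Esr2-KO). Its change was 0.12 ± 0.13 (interval -0.20 to 0.43, edgeR adjusted p = 0.667) and turned to -0.06 under library totals. Slc39a1, Slc39a3, Slc39a6, Slc39a9, Slc39a10 and Slc39a13 had log2 changes from -0.48 to 0.21, and the lowest of these, for Slc39a10, had an adjusted p of 0.272. Slc39a7, an endoplasmic reticulum ZIP, had only 9, 12, 8 and 10 counts in WT 1, WT 2, KO 1 and KO 2. In GENCODE M21, 80.7% of its exonic bases are shared with Gm20427 on the same strand, so its count, and its change of 0.03 ± 0.71, are uncertain. Slc39a2 had 4, 5, 8 and 9 counts and Slc39a12 had 5, 2, 1 and 5, both too few to be tested.

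The ZnT exporters were 10 genes with 8 tested, none of them called by edgeR. An unadjusted p under 0.05 was reached by 2 of the 8, 1 higher (9.69% of all genes) and 1 lower (10.9% of all genes). DESeq2 called these 2, Slc30a2 and Slc30a4, among 1730 of all 17169 genes tested. The changes of the 8 had a median of -0.15, and 6 of 8 were negative. Slc30a4 (chr2:122681233-122702663), the vesicular ZnT4, was at 117 and 140 CPM in WT, against 78.3 and 50.9 CPM in Esr2-KO. The groups were well apart, the level was 1.98-fold lower, and the change of -0.99 ± 0.21 (95% interval -1.5 to -0.48) missed the threshold with an edgeR adjusted p of 0.0645. It passed under library totals (0.0457), with DESeq2 (0.000301) and without KO 1 (0.00129).

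Slc30a2 (chr4:134343046-134354484), the ZnT2 that loads zinc into secretory vesicles of pancreas and mammary gland, had 1 and 12 counts in WT, 17 in KO 1 and 108 in KO 2. Only KO 2 was far from the floor, at 4.10 CPM, with 0.0275 and 0.345 CPM in WT and 0.497 CPM in KO 1. The fitted change of 3.60 ± 1.24 had an interval from 0.64 to 6.55 (edgeR adjusted p = 0.172). It was 1.41 without KO 2 (adjusted p = 0.708) and 4.45 without KO 1 (adjusted p = 0.0074). Slc30a8, the ZnT of insulin granules, had 0 counts in 3 libraries and 4 in KO 2 (exact Poisson 95% interval 1.09 to 10.2, counting error only), and Slc30a3 had none in any library. The 8 islet markers summed to 0.909 and 2.10 CPM in WT, 0.789 in KO 1 and 30.3 in KO 2, where Ins1 had 154 counts after none in the other libraries. The part of pancreatic transcripts in the Slc30a2 values was not tested.

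Slc30a1 (chr1:191906697-191913248), the plasma membrane exporter ZnT1 that zinc induces, was at 34.5 and 49.7 CPM in the WT libraries and 37.2 and 33.4 CPM in those of Esr2-KO, with overlapping groups (-0.25 ± 0.19, interval -0.71 to 0.20, edgeR adjusted p = 0.500). Slc30a10, which exports manganese, was at 28.7 and 36.9 CPM (WT) and at 22.7 and 30.2 CPM (Esr2-KO), also overlapping (-0.31 ± 0.19, adjusted p = 0.417). Slc30a5, Slc30a6, Slc30a7 and Slc30a9 ranged from -0.26 to 0.08 with adjusted p-values from 0.293 to 0.998.

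The metallothioneins varied more between libraries of 1 genotype than most members did, and neither was called by edgeR or DESeq2 or had an unadjusted p under 0.05. Mt1 (chr8:94178883-94180327) had 1721 and 3747 counts in WT, against 2958 and 6347 in Esr2-KO, or 47.4 and 108 CPM against 86.5 and 241 CPM. Mt2 (chr8:94172618-94173567) was at 22.9 and 78.5 CPM in WT, against 41.7 and 125 CPM in Esr2-KO. Both genes ran in the same order, WT 1, KO 1, WT 2, KO 2, so the groups overlapped. The change of Mt1 was 1.08 ± 0.53 (95% interval -0.18 to 2.34, edgeR adjusted p = 0.305) and that of Mt2 0.72 ± 0.65 (interval -0.83 to 2.26, adjusted p = 0.575). The size rested on KO 2: without it Mt1 was at 0.16 and Mt2 at -0.28, and without KO 1 Mt1 was at 1.64 with an adjusted p of 0.0139. In GENCODE M21, 73.5% of the exonic bases of Mt2 are overlapped by Gm45774 on the other strand, and no source used here says whether counting used strand, so its count is uncertain. KO 2 was also the library with the highest acinar sum, and the part of the acinar transcripts in the metallothionein values was not tested.

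**Figure D3:**
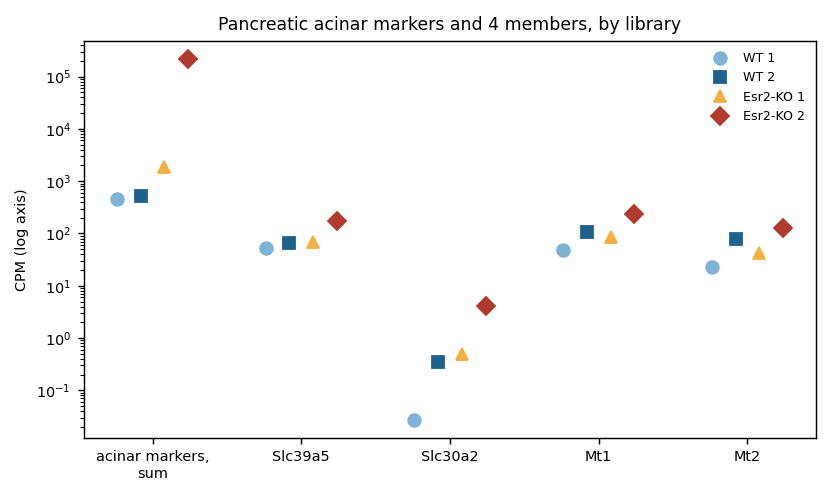
Summed level of 23 pancreatic acinar markers and levels of Slc39a5, Slc30a2, Mt1 and Mt2 in each library (CPM, log y axis), 2 WT and 2 Esr2-KO. The acinar sum rises from 459 in WT 1 to 219184 in KO 2, and each of the 4 genes has its highest value in KO 2, while Mt1 and Mt2 also differ between WT 1 and WT 2.

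Zinc acts on the metallothionein genes through the metal response element, the binding site of Mtf1, and some matches to its core in member windows are shown. The part of such sites in the library order of Mt1 and Mt2 was not tested. The core TGCACNC or TGCGCNC was searched on both strands in RefSeq windows of 300 bases (250 before to 50 after each start, GRCm38.p6), where overlapping matches were each counted. At least 1 match stood in 25.7% of 32851 such windows, 2 or more in 7.11% and 3 or more in 1.97%. Windows were found for 33 members, of which 18 had a match in 1 or more of theirs, and 19 of the 40 member windows (47.5%) held one. Mt1 had 3 matches, Mt2 4, Slc30a4 3, Slc30a10 3, Slc30a1 2, Slc30a2 2 and Atp7b 1. Each stretch of 30 bases below is read 5′ to 3′ on the plus strand with the core in capitals, and the Slc30a1 stretch holds it as its reverse complement.
Mt1, chr8:94179054-94179083: gcggtcccgctgTGCACACtggcgctccag
Mt1, chr8:94179088-94179117: ctcTGCACTCcgcccgaaaagTGCGCTCgg
Mt2, chr8:94172478-94172507: tcgcagacccttTGCGCTCagctcctttgc
Slc30a1, chr1:191906726-191906755: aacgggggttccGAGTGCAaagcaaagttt
A match describes the letters of the window and not binding. Mtf1 itself was at 22.5 and 27.8 CPM in the WT libraries and 38.5 and 35.1 CPM in those of Esr2-KO, with no overlap and a change of 0.55 ± 0.15 that did not pass (edgeR adjusted p = 0.116).

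Neither copper importer was called by edgeR or DESeq2, and 1 had an unadjusted p under 0.05, higher (9.69% of all genes). Slc31a1 (chr4:62360583-62391769), the high-affinity importer CTR1, was at 159 and 149 CPM (WT) and at 190 and 197 CPM (Esr2-KO). Both Esr2-KO libraries were higher, with a change of 0.33 ± 0.12 that did not pass (95% interval 0.05 to 0.61, edgeR adjusted p = 0.187). Its neighbour and relative Slc31a2 (chr4:62280393-62298412) was at 25.5 and 28.0 CPM in WT, against 24.6 and 29.4 CPM in Esr2-KO, where the Esr2-KO libraries enclosed the WT libraries (0.02 ± 0.15, interval -0.34 to 0.37).

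Of the 2 copper ATPases, 1 was called. Atp7a (chrX:106027224-106128161), the gene of Menkes disease and the ATPase by which enterocytes export copper, was at 31.4 and 31.8 CPM in the WT libraries and 33.5 and 35.5 CPM in those of Esr2-KO, a change of 0.13 ± 0.12 (95% interval -0.17 to 0.42, edgeR adjusted p = 0.607) that turned to -0.04 under library totals. Atp7b (chr8:21992783-22060074), the gene of Wilson disease and best known from liver, rose from a low level. It had 7 and 11 counts in WT and 65 in each Esr2-KO library, or 0.193 and 0.316 CPM against 1.90 and 2.47 CPM. Its fold change was 8.47 (log2 change 3.08 ± 0.51, 95% interval 1.85 to 4.31, edgeR adjusted p = 0.0367). The call was lost without WT 1 (2.77, adjusted p = 0.175), without WT 2 (3.49, adjusted p = 0.0799) and without KO 2 (2.89, adjusted p = 0.0706), while both Esr2-KO libraries were above both WT libraries. Of 5 liver markers only Ttr was higher without overlap, at 8.26 and 16.4 CPM in WT, against 64.8 and 77.0 CPM in Esr2-KO. Apoh was lower without overlap, Alb overlapped, and Fgb and Serpina1a were at 0 in 3 and 2 of the libraries. The part of these markers in the Atp7b result was not tested. The Atp7b window held its 1 metal response core 151 to 157 bases before the RefSeq start.
Atp7b, chr8:22060214-22060243, minus strand: tgtggtcctcgcTGCACCCtatctgcagcg

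Compared per kilobase of exon (CPM per kb over the union of GENCODE M21 exons), the mean level over the 4 libraries was highest for Ftl1 at 882 and Fth1 at 586. Mt2 followed at 114 and Mt1 at 96.8, then Slc39a1 at 67.3, Slc39a5 at 40.8 and Slc31a1 at 40.5. Among the ZIP genes Slc39a4 stood at 35.2 and Slc39a8 at 4.96, and among the ZnT genes Slc30a4 stood at 17.6 and Slc30a2 at 0.348. Among the iron transport genes the means were 34.7 for transferrin, 25.5 for ferroportin, 12.8 for hephaestin and 6.05 for Slc11a2, and the libraries of ferroportin and hephaestin overlapped, since in WT 1 ferroportin was at 13.5 and hephaestin at 14.6. Atp7a at 3.78 was far above Atp7b at 0.187, so the called ATPase was the minor one in every library. Per kb, the 4 libraries of Ftl1 lay above those of Fth1, while the ranges of Mt2, Mt1 and Slc39a1 overlapped, as did those of Slc39a5 and Slc31a1. These orders rest on the annotated lengths, 3.47 kb for Fth1, 1.34 for Ftl1, 1.25 for Mt1 and 0.588 for Mt2. Such a union of exons may be longer than the transcripts present. Without division by length both pairs were reversed, with mean CPM of 2033 for Fth1, 1182 for Ftl1, 121 for Mt1 and 67.1 for Mt2.

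**Figure D4:**
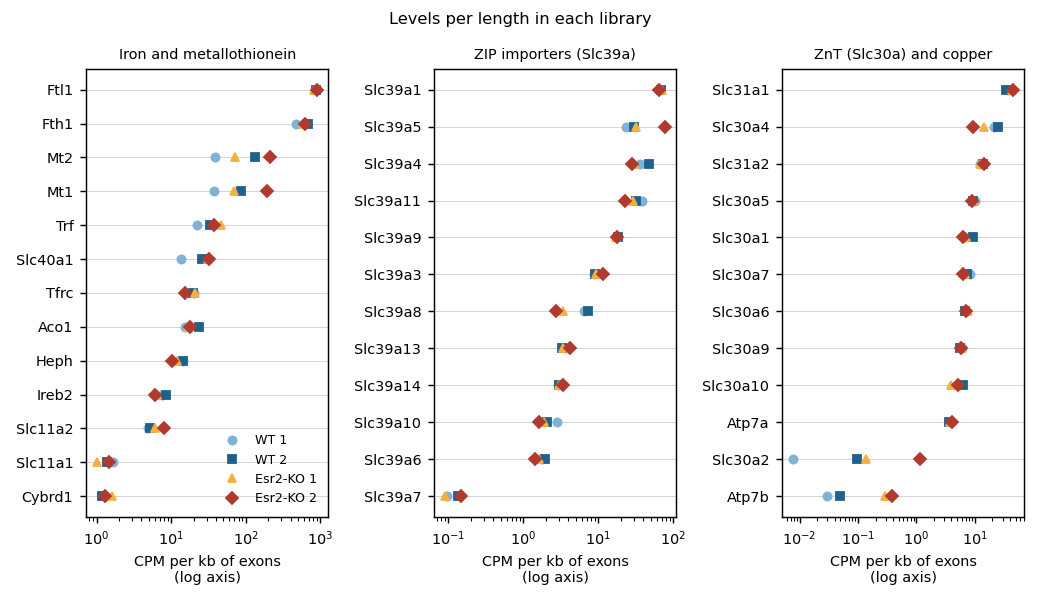
Level per exon length (CPM per kb, log axis) of the 37 members tested in each of the 4 libraries, WT and Esr2-KO. The 3 panels hold iron and metallothionein genes, ZIP importers, and ZnT exporters with copper genes. Ftl1 and Fth1 lie at the top of the iron and metallothionein panel. In the ZnT and copper panel Atp7a lies above Atp7b in every library.

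A list of other iron genes held 47 symbols, where some genes stood under both an old and a new name. Of these symbols 42 were in the count table and 34 were tested. Among those tested 2 were called, both higher in Esr2-KO. An unadjusted p under 0.05 was reached by 14 of the 34, 12 higher and 2 lower, where 20.6% of all genes reached it (9.69% higher and 10.9% lower). The 2 calls stand beside 2.69% called among all genes, and the median change was 0.18 beside -0.00 for all genes. Bmp2, a ligand that induces hepcidin in liver, rose from 24.3 and 34.5 CPM in WT to 65.6 and 83.1 CPM in Esr2-KO (1.34 ± 0.20, edgeR adjusted p = 0.030, and 0.0749 without WT 1). Slc46a1, a proton-coupled folate transporter also described as a haem carrier, rose from 5.89 and 13.3 CPM to 43.6 and 55.7 CPM (2.37 ± 0.37, adjusted p = 0.0305, and 3.09 without WT 2). Steap3, a ferric reductase of endosomes, was at 27.9 and 26.8 CPM (WT) and at 35.3 and 44.9 CPM (Esr2-KO), a change of 0.55 ± 0.16 (adjusted p = 0.117). Hamp2, a hepcidin gene, was high in KO 2 alone, with 0 and 0.287 CPM in WT, 0.819 in KO 1 and 20.8 in KO 2 (6.21 ± 1.71, adjusted p = 0.113, and 2.50 without KO 2). Alas1, the first enzyme of haem synthesis, was at -0.48 ± 0.14 (adjusted p = 0.119).

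Genes that hypoxia or iron regulatory proteins are known to act on held 4 calls among 12 tested, or 33.3% beside 2.69% of all genes, with 3 higher and 1 lower, in a list chosen with earlier results of these libraries known. Changes were positive for 8 and negative for 4. Vegfa (0.11, edgeR adjusted p = 0.780) and Car9 (-0.14, adjusted p = 0.671) had overlapping groups. Egln1 (0.47, adjusted p = 0.122) and Ankrd37 (0.29, adjusted p = 0.475) were higher without overlap but did not pass. Egln3, an iron-dependent prolyl hydroxylase, rose from 37.7 and 38.1 CPM in WT to 137 and 156 CPM in Esr2-KO (1.95 ± 0.12, edgeR adjusted p = 0.00699). Hif1a rose from 113 and 85.9 CPM to 199 and 177 CPM (0.92 ± 0.16, adjusted p = 0.0436, and 0.0963 without WT 2), and under library totals it was 0.76 with an adjusted p of 0.124. Bnip3, a mitophagy receptor, rose from 19.1 and 21.6 CPM to 49.8 and 38.2 CPM (1.11 ± 0.17, adjusted p = 0.0305, lost without WT 1 at 0.137 and without WT 2 at 0.0635). Cdc42bpa, a kinase whose transcript carries an iron-responsive element, fell from 68.9 and 72.0 CPM to 41.6 and 34 CPM (-0.90 ± 0.14, adjusted p = 0.030, lost without WT 1 at 0.102 and without WT 2 at 0.0866). Epas1, the factor that drives Slc11a2 and Slc40a1 in iron-deficient gut, was at 92.4 and 133 CPM in WT, against 157 and 171 CPM in Esr2-KO, without overlap (0.54 ± 0.19, adjusted p = 0.172). Slc11a2 and Slc40a1 were likewise higher in both Esr2-KO libraries than in both WT libraries without passing, as 27% of all genes tested were higher without overlap. The part of Epas1 in these values was not tested.

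Among 12 further zinc genes, of which 9 were tested, only the zinc enzyme carbonic anhydrase Car1 was called (11.1%, beside 2.69% of all genes). It fell from 3002 and 6491 CPM in WT to 1112 and 1082 CPM in Esr2-KO (-2.11 ± 0.39, edgeR adjusted p = 0.0469, 0.056 without KO 2, and -1.43 without WT 2), and it is also 1 of the 10 colon epithelium markers. Its relative Car4 was at 546 and 685 CPM in the WT libraries and 1156 and 1348 CPM in those of Esr2-KO (1.02 ± 0.21, adjusted p = 0.0596). Mt3, another metallothionein, was at 6.83 and 5 CPM (WT) and at 2.22 and 0.872 CPM (Esr2-KO), opposite to Mt1 and Mt2 (-1.92 ± 0.46, adjusted p = 0.0859). Alpi, the zinc-dependent intestinal alkaline phosphatase, was at -3.61 ± 0.87 (adjusted p = 0.085).

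Of 23 other copper genes, all tested, 1 was called (4.35%, beside 2.69% of all genes), with a median change of 0.00. Prnp, the copper-binding prion protein, fell from 213 and 192 CPM in WT to 96.5 and 92.9 CPM in Esr2-KO (-1.10 ± 0.12, edgeR adjusted p = 0.0196), and passed without each library in turn. The copper enzyme Lox was at -1.03 ± 0.20 (adjusted p = 0.0554) and Xiap, which binds copper, at -0.58 ± 0.13 (adjusted p = 0.0714).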

How the data were processed

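Colon RNA of 2 WT and 2 Esr2-KO libraries was analysed. Libraries were strand-specific (NEBNext Ultra directional) and made from Trizol-extracted total RNA after ribosomal depletion, per the labels' protocols. The design text speaks of triplicates, and 2 libraries per group are used here. The authors deposited raw counts per gene symbol. Reads were aligned with HISAT2 to mm10, per the submitters' processing notes. The counter, annotation, strand setting and filters were not given in the sources used here. Reads of genes that overlap, lie antisense or are nearly identical cannot be told apart.

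Of 46095 symbols, 20580 had no count. edgeR 4.0.16 (R 4.3.3) was run with TMM scaling, filterByExpr at a minimum count of 10 and total of 15, and the quasi-likelihood test of Esr2-KO against WT, two-sided, with Benjamini-Hochberg adjustment over 17169 genes, and a threshold of 0.05. With 2 residual degrees of freedom, edgeR put the common coefficient of biological variation at 0.233. Standard errors come from the F statistic, and intervals are 95%. The code was tested on simulated data. The replicates of a group differed by more than sampling noise (chi-square per degree of freedom 39.7 in WT, 478 in Esr2-KO).

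Members and lists were chosen with earlier results of these data known. Named genes were Esr2, a set of members named for their roles, every member with an unadjusted p under 0.05 and, from each other list, genes with an adjusted p under 0.05 plus up to 2 more with the smallest p. Other members named here were chosen to account for the whole set. DESeq2 1.42.0, limma 3.58.1 (voom), other scalings and filters, a replicate block, omission of each library and omission of pancreatic enzyme genes were tried as alternatives. Coordinates and promoter windows are RefSeq's (GRCm38.p6) and exon lengths GENCODE M21.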

Additional observations from a re-analysis of the deposited data

How the results depend on the processing

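The number of members called, 2, was also 2 under DESeq2 size factors, a filter of 1 CPM in 2 libraries, limma-voom and omission of pancreatic enzyme genes. It was 3 under library totals, 9 with no low-count filter, 7 with the DESeq2 test (Heph, Slc30a2, Slc30a4, Slc39a4 and Trf in addition) and 5 with a replicate block, and ranged from 0 to 7 when a library was left out (the lone library of its group is then assumed to vary like the other group). The block added Mt1 (adjusted p 0.0304), Mt2 (0.0432) and Slc30a2 (0.0451), but deviations of the libraries sharing a number correlated at -0.0641 over 17169 genes, so the numbers are not shown to pair samples. For all genes the count of 462 became 695 under library totals, 1916 with no filter, 1730 with DESeq2 and 490 with the block, and 165 to 1804 with a library left out. Other iron genes gave 6 with no filter, 4 with DESeq2 and 1 to 6 with a library left out. Other zinc genes gave 3 under library totals, 6 with no filter, 0 at 1 CPM, 5 with DESeq2, 2 with limma-voom, 0 with the block, 2 without pancreatic enzyme genes and 1 to 5 with a library left out. Other copper genes gave 2 under library totals, 5 with no filter, 5 with DESeq2, 2 with limma-voom, 2 without pancreatic enzyme genes and 1 to 5 with a library left out, and the hypoxia and iron regulatory list 1 to 4. The cause was not tested.

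Small changes turned sign. Under library totals Fth1 was at -0.11, Slc39a1 at -0.13, Slc39a7 at -0.15, Slc39a13 at -0.054, Slc39a14 at -0.056, Slc30a6 at -0.082, Slc31a2 at -0.16 and Atp7a at -0.041. Slc30a9 turned to 0.00298 with DESeq2 size factors, 0.00936 with no filter, 0.00306 with DESeq2 and 0.00038 with limma-voom. With each library left out in turn, the log2 change ranged from -1.42 to 0.35 for Esr2, -0.39 to 0.060 for Tfrc, -0.19 to 0.38 for Fth1, -0.11 to 0.035 for Ftl1, -0.46 to 0.18 for Aco1, -0.022 to 0.092 for Slc39a1, -0.33 to 0.36 for Slc39a7, -0.079 to 0.012 for Slc39a9, -0.029 to 0.28 for Slc39a13, -0.49 to 0.053 for Slc30a1, -0.12 to 0.018 for Slc30a5, -0.027 to 0.045 for Slc30a9, -0.28 to 1.88 for Mt2 and -0.11 to 0.14 for Slc31a2. Of the other values for single genes under an alternative, 575 stayed on their side of the threshold with their direction, 58 newly passed it and 15 no longer did.

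With 2 libraries per group, and members such as Slc39a7, Slc30a2 and Atp7b near 10 counts in some libraries, small changes were not detectable at this depth.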

Other observations

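Slc39a7 lies in the major histocompatibility region of chromosome 17 (chr17:34028266-34031690). Of 26 other genes in the table within 200 kb on each side, 17 had at most 20 counts in every library and 4 had more than 100 in any. Brd2, a bromodomain factor, had 9, 10, 10 and 4 counts in WT 1, WT 2, KO 1 and KO 2, and Ring1, a Polycomb subunit, had 4, 2, 4 and 2. Rxrb, a retinoid receptor, had 19, 6, 2 and 6. In the same stretch the ribosomal protein gene Rps18 had 5347, 6915, 6198 and 5709 counts and the class I gene H2-K1 507, 577, 445 and 372. The low counts stood in both genotypes.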
